A study of Mus musculus with 2 samples.

Results

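Nupr1 and 9 genes of the integrated stress response, namely Atf4, Atf5, Ddit3, Ddit4, Trib3, Asns, Chac1, Sesn2 and Cebpb, were followed in 2 populations of cells from the pyloric stomach. They were taken by gene name from the array files, which gave 10 of 27725 gene names and 13 of 41174 gene probes. Nupr1 was chosen by its log2 ratio between the populations on these arrays, so its difference is a description. The other 9 were added, with earlier results of these data known, to ask whether Nupr1 moved with known partners and targets of Atf4.

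The stomachs of 20 mice with the Lgr5-EGFP-ires-CreERT2 knock-in were pooled, and their pylorus, where stomach and intestine meet, was digested with trypsin. In this strain the Lgr5 promoter drives GFP, so GFP brightness follows Lgr5, a stem cell marker. Sorting gave cells of high GFP (GFPhigh) and of low GFP (GFPlow), which carry the same knock-in allele. The labels name no age and no treatment. RNA of both populations was hybridised together on 2 two-colour arrays, with GFPhigh labelled with Cy3 on array 1 and with Cy5 on array 2. This is 1 RNA sample per population measured on 2 arrays, so no test between the populations was possible, no p-value is given, and each SD covers technical error only. Values are log2 ratios of GFPhigh over GFPlow, mean ± SD of 2 arrays, unless they are called levels. In bulk RNA, more cells of a type and more RNA per cell cannot be told apart.

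The integrated stress response starts when a kinase senses amino acid shortage, unfolded protein in the endoplasmic reticulum, double-stranded RNA or haem deficiency and phosphorylates the translation initiation factor eIF2. General translation then slows, while the mRNA of the transcription factor Atf4 is translated more. Much of Atf4 control therefore lies at translation, which an mRNA array does not measure. Atf4 protein binds composite C/EBP-ATF elements and induces genes of amino acid supply, tRNA charging and further regulators, among them Ddit3, Trib3, Chac1, Asns and Nupr1. Nupr1 is a small stress-induced chromatin protein first described in the inflamed pancreas.

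The core of the C/EBP-ATF element, TGATGNAA, was searched on both strands of RefSeq promoter windows (GRCm38.p6), which run from 250 bases before to 50 bases after each gene start. All 10 genes matched, with 11 windows in all because Atf5 has more than 1 start. The motif was present for 4 of the 10 genes, namely Nupr1, Chac1, Asns and Trib3, and in 3.97% of all 32851 windows. A share of genes is not a share of windows. The genes beside Nupr1 were picked as known partners and targets of Atf4, so the count of 4 has no weight. The 4 matches are shown because Nupr1 and Asns were measured on the arrays, while Chac1 and Trib3 were not. Each line runs 5′ to 3′ in the direction of the gene, with 11 bases on either side and the motif in capitals. In Nupr1, Chac1 and Trib3 the capitals are the reverse complement of the motif, which lies on the opposite strand.
Nupr1: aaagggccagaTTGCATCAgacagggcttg
Chac1: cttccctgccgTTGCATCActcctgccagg
Asns: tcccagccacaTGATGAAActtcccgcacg
Trib3: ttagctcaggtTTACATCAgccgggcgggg

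The Nupr1 stretch lies at chr7:126625562-126625591 on the minus strand, and its motif begins at base -110 from the gene start. That of Chac1 lies at chr2:119351038-119351067 on the plus strand, that of Asns at chr6:7693214-7693243 on the minus strand and that of Trib3 at chr2:152344028-152344057 on the minus strand. The Trib3 motif begins at base 15 after the gene start. Nupr1 and Chac1 carry the same 8 letters. The 250 bases before the Nupr1 start, chr7:126625471-126625720 on the minus strand, are shown as the promoter of the gene with the largest ratio of the 10, with the motif again in capitals.
Nupr1 promoter: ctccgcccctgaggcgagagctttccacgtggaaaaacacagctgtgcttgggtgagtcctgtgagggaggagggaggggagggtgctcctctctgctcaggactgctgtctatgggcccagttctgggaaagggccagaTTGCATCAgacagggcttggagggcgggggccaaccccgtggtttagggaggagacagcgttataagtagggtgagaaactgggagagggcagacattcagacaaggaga
A match describes letters in a window and does not show binding.

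Of the 10 genes, Nupr1 alone exceeded a 2-fold difference on each array, with GFPhigh higher. A gene counted as measured when the population with more signal passed the scanner's background test on each array, and 8 of the 10 did. All 8 passed it in the other population too, so none was kept through 1 population alone. Chac1 and Trib3 were not measured. Over all 7829 measured genes, 4.46% exceeded 2-fold in the same direction on each array, 1.76% with GFPhigh higher and 2.70% with GFPlow higher. Since Nupr1 was chosen for its ratio, the count of 1 in 8 is given without weight.

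The sort and the tissue can be checked on the same arrays. Lgr5 was at 2.28 ± 0.06. In the 4 channels, 18.7% to 31.7% of gene spots passed the background test, and the difference between the ratios of the 2 arrays had an SD of 0.57 over genes. Of 14 markers of stomach epithelium 12 were measured. Of 9 leukocyte, 9 fibroblast and muscle and 5 endothelial markers, 1, 2 and 1 were measured, and Ptprc, Cd68, Col1a1, Dcn, Pecam1 and Cdh5 were not well above background in any channel.

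The Nupr1 probe lies at chr7:133766978-133767037 of mm9, the build that the file headers name. No gene annotation of that build was used, so exons and UTRs of the probes are not given. The normalised log2 level of Nupr1 was 10.68 and 11.19 in GFPhigh on arrays 1 and 2, and 8.64 and 8.35 in GFPlow. Both GFPhigh values lay above both GFPlow values, and the groups did not overlap. Such groups need ratios of 1 sign on both arrays, which 28.1% of all measured genes had above 0 and 36.6% below. The share of all genes without overlap was not determined, so overlap is only described, here and for the other genes. The Nupr1 ratios of 2.04 and 2.84 gave a mean of 2.44 ± 0.57, or 5.42-fold. Of the measured genes 9 had a larger mean ratio, and 3 had a larger ratio on each array. Before any normalisation, the background-subtracted signal of Nupr1 was 1875 in GFPhigh and 323 in GFPlow on array 1, and 1161 and 575 on array 2. GFPhigh was thus the brighter channel in either dye, which held for 1 of the 8 genes, Nupr1, chosen by its ratio, and for 0.945% of all measured genes. Atf5 came next, with signal ratios of 2.19 on array 1 and 0.958 on array 2, while those of the other 6 were between 1.48 and 2.79 on array 1 and between 0.174 and 0.628 on array 2.

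**Figure D1:**
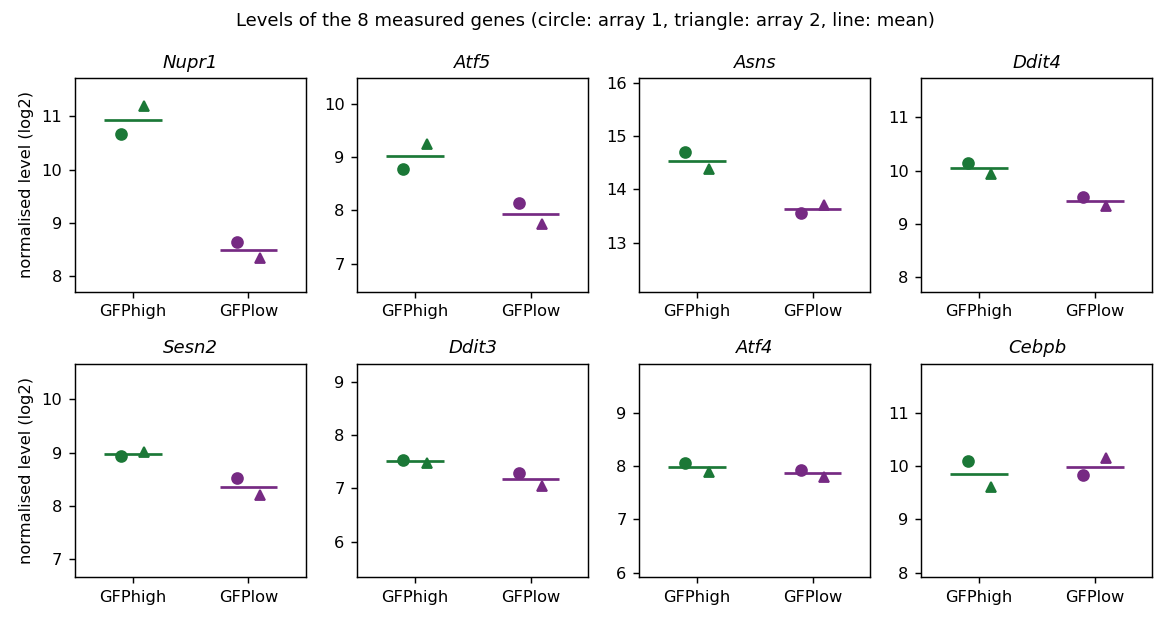
Normalised log2 level of the 8 measured genes in GFPhigh (green) and GFPlow (purple), circles for array 1, triangles for array 2 and lines for the mean of 2 arrays; every panel spans the same log2 range, and levels of different genes cannot be compared. The Nupr1 values of 10.68 and 11.19 in GFPhigh stand far above 8.64 and 8.35 in GFPlow, while those of Atf4 and Cebpb lie close together or overlap.

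Atf4, the transcription factor at the centre of the response, differed little at the mRNA level. Its normalised log2 level was 8.07 and 7.88 in GFPhigh and 7.93 and 7.80 in GFPlow on arrays 1 and 2, and the groups overlapped. Its ratios, 0.14 and 0.08, averaged 0.11 ± 0.04, or 1.08-fold. Of the measured genes 36.4% had a larger ratio. The Atf4 probe lies at chr15:80087079-80087138 of mm9.

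Among the transcription factors that act with or downstream of Atf4, Atf5 stood highest. Atf5, whose mRNA is induced in the response and translated like that of Atf4, had a normalised log2 level of 8.78 and 9.25 in GFPhigh and 8.13 and 7.74 in GFPlow. These groups did not overlap. The ratios, 0.65 and 1.51, averaged 1.08 ± 0.61, or 2.12-fold, and it missed the 2-fold threshold on array 1 only. Of the measured genes 2.63% had a larger mean ratio. The Atf5 probe lies at chr7:52067718-52067777 of mm9.

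Ddit3 encodes CHOP, a factor that turns the response towards cell death when stress persists. Its log2 level was 7.53 and 7.48 in GFPhigh and 7.29 and 7.04 in GFPlow, with no overlap, and its ratio was 0.34 ± 0.14, or 1.27-fold. The 60 bases of the Ddit3 probe span 304 bases of the genome, chr10:126732518-126732821 of mm9. Cebpb encodes a C/EBP factor that pairs with Atf4. Its brighter probe, at chr2:167515847-167515905 of mm9, had a log2 level of 10.10 and 9.60 in GFPhigh and 9.83 and 10.15 in GFPlow. The groups overlapped, and ratios of 0.27 and -0.55 averaged -0.14 ± 0.58. A further Cebpb probe gave 0.01 ± 0.09, so neither probe showed a difference beyond the spread of the arrays.

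Trib3, a pseudokinase that feeds back on Atf4 and Ddit3, was not measured. Of its pair of probes, that at chr2:152163355-152163414 of mm9 did not pass the background test in any channel, and that at chr2:152164025-152164084 passed it in GFPhigh on array 1 alone. Chac1, an enzyme that degrades glutathione and is among the sharpest markers of Atf4 activity, had no spot that passed the background test. Its log2 level was 6.38 and 6.13 in GFPhigh and 6.41 and 6.36 in GFPlow, at chr2:119179990-119180049 of mm9. No ratio is given for Trib3 or Chac1. Both carry the promoter motif shown above, as do Nupr1, at 2.44, and Asns, at 0.91. Without a ratio, Trib3 and Chac1 cannot be placed against these genes. Of the measured genes with no motif in their windows, Atf5 was at 1.08, Ddit4 at 0.62 and Sesn2 at 0.61. Ddit3 was at 0.34, Atf4 at 0.11 and Cebpb at -0.14. Atf5 was above Asns on array 2, at 1.51 against 0.67, and below it on array 1, at 0.65 against 1.15. The relation of motif and ratio was not tested.

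The effector genes of amino acid supply and growth control lay between. Asns, asparagine synthetase, had a log2 level of 14.70 and 14.37 in GFPhigh and 13.55 and 13.70 in GFPlow, with no overlap, at chr6:7625194-7625253 of mm9. Ratios of 1.15 and 0.67 averaged 0.91 ± 0.34, or 1.88-fold. Before normalisation, the ratio of its background-subtracted signals was 2.79 on array 1 and 0.284 on array 2, so the Cy3 channel was the brighter on each array whichever population it held. With each array centred on its median in place of loess, Asns was at -0.08.

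Ddit4, an inhibitor of the growth kinase mTORC1, had a log2 level of 10.14 and 9.93 in GFPhigh and 9.49 and 9.34 in GFPlow. These did not overlap, and the ratios of 0.65 and 0.59 averaged 0.62 ± 0.04, or 1.54-fold. It had the closest agreement of the arrays, with Atf4, among the 8 genes, and its probe lies at chr10:59412486-59412545 of mm9. Sesn2, a sestrin that also restrains mTORC1, had ratios of 0.41 and 0.81 by its brighter probe, a mean of 0.61 ± 0.29, at chr4:132047974-132048033 of mm9. The log2 levels of that probe were 8.93 and 9.01 in GFPhigh and 8.52 and 8.20 in GFPlow, with no overlap. A further Sesn2 probe gave -0.03 and 0.66, a mean of 0.32 ± 0.48, so the probes agreed on array 2 better than on array 1. The log2 levels of this further probe, 7.82 and 7.95 in GFPhigh and 7.84 and 7.29 in GFPlow, overlapped.

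The median ratio of the 8 measured genes was 0.61, and 0.61 over the 7 without Nupr1, against -0.06 over all measured genes and 0.04 over the 6224 genes that passed the background test in both populations. The 10 genes were chosen with earlier results of these data known, so these medians and the counts below are descriptions without weight. Without Nupr1, which was chosen for its ratio, 6 of 7 were above 0 on both arrays, against 33.5% of those 6224 genes. The sign turned for Ddit4, Sesn2, Ddit3 and Atf4 with spike-in centring and for Ddit4, Asns and Atf4 with median centring. At a threshold of 1.5-fold on both arrays, Atf5, Ddit4 and Asns were higher in GFPhigh, 3 of the 7 without Nupr1, and none was lower, against 5.59% of all measured genes higher. These signs are relative to the average gene. With the arrays centred on spike-in RNA those ratios were -0.17, -0.18, -0.44 and -0.67, and with centring on the median they were -0.02, -0.08 and -0.29. The median of all genes then stood at -0.81 and -0.49. Every measured gene of the 10 except Cebpb stayed above it under both centrings. Spike-in centring lowers every ratio by 0.78, so places relative to that median could hardly change, and staying above it there has no weight.

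Set beside Nupr1 on the same array, the other 7 genes were at a distance. Nupr1 exceeded the next highest by 0.88 on array 1, which was Asns, and by 1.33 on array 2, which was Atf5. Its difference from Atf5 was 1.38 and 1.33 on the 2 arrays, a mean of 1.36 ± 0.04, and that from Atf4 was 2.33 ± 0.61. That from Asns was 1.53 ± 0.91. Nupr1 was chosen by its ratio on these arrays, so its lead is a description.

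**Figure D2:**
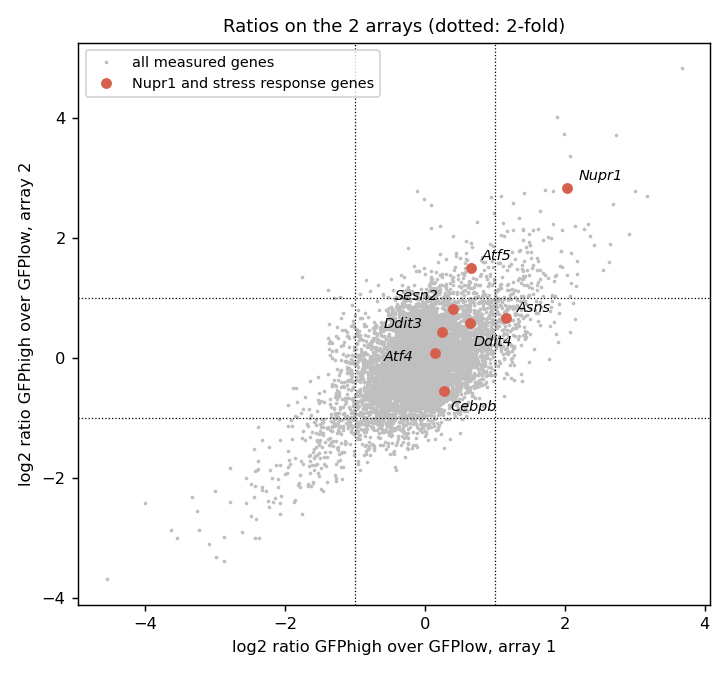
Log2 ratio of GFPhigh over GFPlow on array 1 (x axis) and array 2 (y axis) for 7829 measured genes (grey) and the 8 measured stress response genes (red), with dotted lines at 2-fold. Nupr1, at 2.04 and 2.84, lies in the upper right corner, Atf5 and Asns pass 2-fold on 1 array each, and Atf4 lies near 0 on both.

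By the distance between their ratios on the 2 arrays, the 6 genes nearest Nupr1 among 6224 genes above background in both populations were Pga5, Col11a2, Aqp5, Lrg1, Clps and Rhoc. Pga5, a pepsinogen of chief cells, was nearest, at 2.31 ± 0.66 and a distance of 0.21. The collagen gene Col11a2 was at 2.26 ± 0.77 and the water channel gene Aqp5 at 2.72 ± 0.92. Lrg1 was at 2.05 ± 0.56, the pancreatic colipase gene Clps at 2.09 ± 0.94 and the small GTPase gene Rhoc at 2.04 ± 0.29. Pga5 and Aqp5 are also among the gland cell markers below, and none of the 6 is a listed stress response gene. Nupr1 was chosen by these same ratios, so its neighbours could only be other genes of large ratio, and neither point has weight. The likeness rests on 2 values of 1 contrast.

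Most markers of gland cells moved in the same direction as Nupr1, with 10 of 12 above 0 on both arrays. Of all measured genes 28.1% were above 0 on both arrays. Ctrb1, at 0.32 ± 0.69, and Clu, at 0.68 ± 1.09, were below 0 on array 1. Of 12 genes of chief and gland mucous cells, all measured, 7 exceeded 2-fold with GFPhigh higher on each array and none with GFPlow higher, with a median of 2.07 and Cblif, gastric intrinsic factor, highest at 4.25 ± 0.82. Their summed level was 768122 and 1334590 in GFPhigh and 247801 and 130180 in GFPlow on arrays 1 and 2, and none of the 12 was at background throughout. Of 9 markers of proliferating cells, all measured, 7 were at least 2-fold higher in GFPlow, with a median of -1.55 and a summed level of 3706 and 3945 in GFPhigh against 12386 and 12468 in GFPlow. In GFPhigh 5 of those 9 passed the background test on each array, and Top2a, Cdk1, Mcm2 and Ccnb1 passed the filter through GFPlow, with Cdk1 and Ccnb1 among the 7. Of 7 measured pit cell markers 6, and of 6 measured endocrine markers 4, were also at least 2-fold higher in GFPlow. Gkn1 and Psca of the pit cell markers and Pcsk1 of the endocrine ones passed through GFPlow too. The part of these cell types in the ratios of Nupr1, Atf5 and Asns was not tested. Of 11 measured genes of the immediate early and heat shock response, which cell dissociation can induce, 0 were at least 2-fold apart on both arrays, with a median of 0.06. Their summed level was 11920 and 14059 in GFPhigh and 13413 and 11686 in GFPlow, and the groups overlapped. The largest ratios went both ways, with Ier2 at 0.44 ± 0.27, Egr1 at -0.42 ± 0.24, Junb at 0.38 ± 0.89 and Hspa1b at -0.31 ± 0.41. The immediate early genes Fos and Jun, at 0.07 ± 0.10 and 0.06 ± 0.04, were among the smallest.

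The machinery upstream of Atf4 showed no member past 2-fold on both arrays. Of 18 genes for the eIF2 kinases, eIF2, its exchange factor eIF2B and its phosphatase, 13 were measured, with a median of -0.18. Their median on array 1 was -0.15. With the filter applied anew, 14 genes each gave -0.07 on array 1 alone, -0.73 with median centring and -0.92 with spike-in centring. Eif2ak3, the kinase PERK of the endoplasmic reticulum, had the largest ratio, 1.26 and 0.51 on arrays 1 and 2 with a mean of 0.89 ± 0.53. The amino acid sensor kinase gene Eif2ak4 was at 0.38 ± 0.01. On the negative side were the eIF2B subunit gene Eif2b1 at -0.79 ± 0.18 and the eIF2 subunit genes Eif2s1 at -0.57 ± 0.20 and Eif2s2 at -0.56 ± 0.24. Ppp1r15a, the stress-induced phosphatase subunit GADD34, was not measured.

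Other known Atf4 targets were split by function. They were listed in 4 groups from general knowledge, without the 10 genes, and the same rule of 2-fold on both arrays was used. Over the 4 groups 37 genes were measured, of which 1 was higher in GFPhigh, 1 was higher in GFPlow, and 17 had a mean ratio above 0. Of all measured genes 1.76% were higher in GFPhigh, 2.70% were higher in GFPlow and 44.3% had a mean ratio above 0. The group medians ran from -0.51 to 0.62.

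Among regulators and other stress targets, 10 of 18 genes were measured, with a median of 0.62. The autophagy receptor gene Sqstm1 was higher in GFPhigh, at 1.27 ± 0.00, or 2.41-fold, and Ndrg1 was higher in GFPlow, at -1.65 ± 0.16, or 3.15-fold; the Ndrg1 spot of GFPhigh passed the background test on 1 of 2 arrays. The lipoprotein receptor gene Vldlr was at 1.28 ± 0.70, Herpud1, of the degradation of proteins of the endoplasmic reticulum, at 0.93 ± 0.04, the angiogenic factor gene Vegfa at 0.81 ± 0.02 and the autophagosome gene Map1lc3b at 0.67 ± 0.07. Gdf15, Fgf21, Stc2, Jdp2, Cebpg and Tnfrsf10b were not well above background in any channel. With no filter on dim probes the median of this group was 0.00075 over 18 genes. The centrings on the median and on spike-in RNA gave -0.02 and -0.17.

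Genes of amino acid synthesis and one-carbon metabolism lay below 0. All 9 measured of 14 had a mean ratio below 0, with a median of -0.51, and 0 of 9 passed 2-fold on both arrays. The serine synthesis genes Phgdh and Psat1 were at -0.96 ± 0.62 and -1.04 ± 0.22, and Mthfd1l, of mitochondrial folate metabolism, at -1.04 ± 0.26. Psat1 passed the background test in GFPlow alone. By its mean ratio it was 2.06-fold higher there, but it fell short of 2-fold on array 1. Shmt2, the mitochondrial serine hydroxymethyltransferase gene, was at -0.32 ± 0.11. In GFPhigh 5 of the 9 passed the background test on each array, and in GFPlow all 9. The other 4, Psat1, Psph, Mthfd1l and Cth, passed the filter through GFPlow alone, so the count of 9 below 0 has no weight. For the same 9 genes the median was -0.40 on array 1 and -0.69 on array 2. It was -0.31 over 14 genes with no filter. Filtered on array 1 alone it was -0.14 over 12 genes, and on array 2 alone -0.69 over 9. Median centring gave -0.99 and spike-in centring -1.27, over 10 genes each. The proliferation markers given above were also lower in GFPhigh, and their part in these ratios was not tested.

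Amino acid transporters had 6 measured genes of 11, none past 2-fold on both arrays, and a median of 0.19. Median centring gave -0.38 and spike-in centring -0.64, over 7 genes each. The glycine transporter gene Slc6a9 came closest, at 0.99 on array 1 and 1.31 on array 2, and Slc38a1 was at 0.66 ± 0.25. The cystine transporter gene Slc7a11, a frequently used Atf4 marker, did not pass the background test in any channel. Of 13 genes for tRNA synthetases and tRNA export 12 were measured, none past 2-fold, with a median of 0.12 on array 1 and -0.40 on array 2. The extremes were Wars at 0.49 ± 0.25 and Iars at -0.54 ± 0.15.

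**Figure D3:**
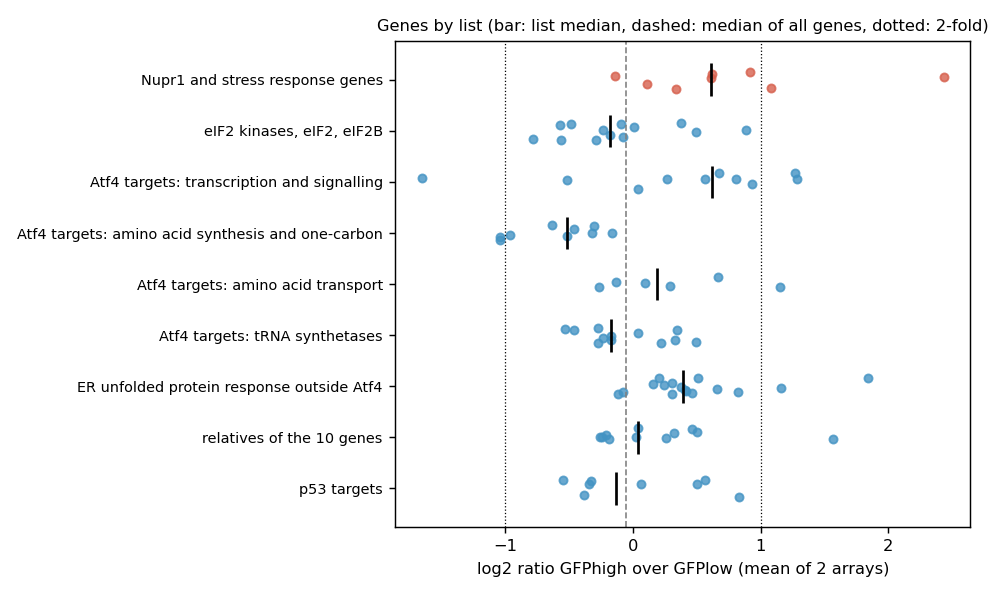
Mean log2 ratio of GFPhigh over GFPlow of each measured gene (points) in Nupr1 and the stress response genes (red) and in 8 related lists (blue); black bars are list medians, the dashed line is the median of all measured genes and dotted lines mark 2-fold. Nupr1 lies to the right of every other point, and all 9 points of the amino acid synthesis list lie left of 0.

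The other arms of the unfolded protein response can be active without Atf4. Of 19 of their genes 16 were measured, 1 of them past 2-fold, with a median of 0.39 that turned to -0.35 with median centring and -0.39 with spike-in centring. The secretory pathway factor gene Creb3l4 was higher in GFPhigh, at 1.84 ± 0.41, or 3.58-fold, and is also among the gland cell markers. Xbp1, the splicing target of the stress sensor Ire1, had ratios of 1.79 and 0.54, a mean of 1.16 ± 0.88. The chaperone gene Dnajb9, an Xbp1 target, was at 0.82 ± 0.50. Hspa5, the chaperone BiP, was at -0.48 on array 1 and 1.32 on array 2, so the arrays disagreed in sign. The chaperone gene Hsp90b1, at -0.11 ± 0.10, was 1 of 2 genes with a mean ratio below 0, against 14 above. Ern2 was at 0.66 ± 0.12 and Edem1 at 0.51 ± 0.02. On both arrays 11 of the 16 were above 0, against 33.5% of genes above background in both populations. This list was chosen with earlier results of these data known, so the count has no weight.

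A list of relatives of the 10 genes and a few other genes, among them Trp53inp2 and Msl1, gave 11 measured of 24. Its median of 0.04 was 0.28 on array 1 alone, -0.12 on array 2 alone, -0.52 with median centring and -0.74 with spike-in centring. Trp53inp2, a nuclear protein with a role in autophagy, was the 1 gene past 2-fold, with ratios of 1.85 and 1.28 that averaged 1.57 ± 0.41, or 2.96-fold. Sesn1, a sestrin induced by p53, was at 0.50 ± 0.50, and the C/EBP gene Cebpd at 0.32 ± 0.84. Trib1, a relative of Trib3, was at -0.26 ± 0.33. Targets of p53, which also controls Sesn2 and Ddit4, were given beside them. Of 18, 8 were measured, none passed 2-fold and the median was -0.13. It was 0.29 over genes that passed the background test in both populations, 0.11 on array 1 alone, -0.31 on array 2 alone, -0.43 with median centring and -0.72 with spike-in centring. Btg2, an inhibitor of proliferation, was at 0.83 ± 0.29, Bbc3, the cell death gene Puma, at 0.56 ± 0.16, Perp at -0.55 ± 0.31 and Bax at -0.38 ± 0.14. The p53 target gene Cdkn1a was not measured.

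Under the 11 alternatives that change the ratios, Nupr1 ran from 1.65 with spike-in centring to 2.84 on array 2 alone and passed 2-fold in each. Relative to the median of all genes it ran from 1.99 to 2.99. Atf5 passed 2-fold with the scanner software's processed signals, in the value table and on array 2 alone, and Asns on array 1 alone. Cebpb was above 0 on array 1 alone and below 0 in the other settings.

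**Figure D4:**
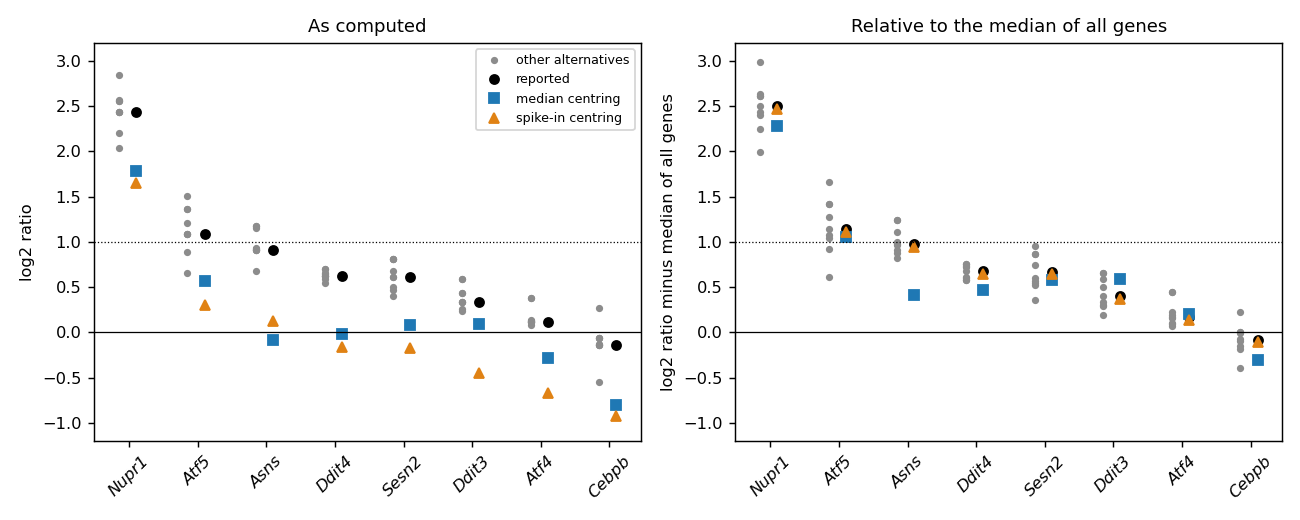
Log2 ratio of GFPhigh over GFPlow of the 8 measured genes as reported (black circle), with median centring (blue square), with spike-in centring (orange triangle) and under the other alternatives (grey); the left panel gives the ratio and the right panel the ratio minus the median of all genes in that setting. Nupr1 stays above the dotted 2-fold line in both panels. On the left the sign of Ddit4 and Atf4 turns under both centrings. That of Sesn2 and Ddit3 turns under spike-in centring and that of Asns under median centring. On the right all 5 stay above 0, which a constant shift such as spike-in centring could hardly change.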

How the data were processed

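Linear amplification started from 150 ng of Trizol-extracted RNA, per the labels' protocols. The authors deposited Feature Extraction output of 2 arrays (version 10.5.1.1 per the file headers, 9.5.3 per the submitters' processing notes), with mean intensity and local background intensity per channel, and quality flags, deposited as 0 or 1. The deposited log10 ratios are of processed Cy5 over Cy3 intensities, and the deposited value table holds them turned to GFPhigh over GFPlow.

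Here limma 3.58.1 (R 4.3.3) applied normexp background correction with an offset of 50, then loess within arrays. Offset and normexp pull dim ratios towards 0. Flagged spots were left out, ratios were turned by the dyes in the labels, and the brightest kept probe stood for a gene (9498 kept probes). Levels were taken per channel after Aquantile normalisation. The steps were tested on simulated arrays. Probes were named through RefSeq accessions (25097 of 41174 probes), other accessions or symbols, and 8075 kept the name in the file.

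The members and gene lists were chosen with earlier results of these data known. Named were all 10 genes and the 6 nearest Nupr1. In the 8 related lists, the genes past 2-fold and up to 4 with the largest absolute ratios were named. The cell type marker lists did not follow that rule, and many of their genes past 2-fold are not named. Further genes of a list are named by their known role and were chosen after their values were seen. Alternatives covered background correction, signals, centring, filter, probe rule, threshold, value table and each array alone. Where an alternative changed which probes passed the filter, the genes measured in a list changed with it. Both arrays share a slide and a scan, so no batch was tested.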

Additional observations from a re-analysis of the deposited data

How the results depend on the processing

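The number of arrays and the signal over background limit these data: 2 of the 10 genes could not be measured, and no alternative adds a biological replicate. Nupr1 was past 2-fold in the same direction in all alternatives. Of all genes, 138 were higher in GFPhigh and 211 in GFPlow. The counts were 352 and 511 with the processed signals, 352 and 507 in the value table, 10 and 215 with median centring, 21 and 1640 with spike-in centring, and 438 and 587 at 1.5-fold, and 139 were higher in GFPlow with both populations above background. On 1 array alone the counts ran from 347 to 370 and from 397 to 496. Of the stress response genes 1 was higher in GFPhigh, but 2 with the processed signals, in the value table and on either array alone (2 to 2), and 4 at 1.5-fold. Nupr1, at 2.44, was at 1.78 with median centring and 1.65 with spike-in centring, and 2.04 to 2.84 on 1 array alone. The median of the stress response genes, 0.61, was 0.52 without background correction, 0.75 with the processed signals and in the value table, 0.030 with median centring, -0.17 with spike-in centring, 0.47 over 10 genes with no filter, 0.54 over mean probes, and 0.41 to 0.63 on 1 array alone. Spike-in centring lowers every ratio by 0.78. For the counts under centring the cause was not tested beyond that shift. No paired analysis was possible because each population has 1 RNA sample; the ratios are already taken within each array.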
